A study of Mus musculus with 12 samples.

Results

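Respiratory complex I subunits were taken from liver RNA-seq of 12 adult male C57BL/6J mice, with a library from each mouse. The 6 mice of the Con group were sedentary, and the 6 mice of the Exe group were trained for 6 weeks by moderate treadmill running, with 5 sessions a week of 60 min each. All mice were 8 weeks old at purchase, carried no engineered allele that the labels name, and gave perfused liver within 24 h of the last run. Members were the genes with a symbol of the Ndufa, Ndufb, Ndufc, Ndufs or Ndufv series, with the assembly factors of the Ndufaf series left out. There were 42 of them among the 16821 genes in the files. The values are FPKM, fragment numbers divided by transcript length and by the mapped total, so levels are per unit of length. Of the 42 members, 40 had at least 1 FPKM in at least 6 mice and were tested, among 10241 genes in all.

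Complex I is the entry point of the mitochondrial respiratory chain. It takes electrons from NADH, passes them along iron-sulfur clusters to ubiquinone and pumps protons across the inner membrane. The matrix arm holds the N module, which oxidizes NADH, and the Q module, which reduces ubiquinone. The membrane arm holds the proton pumps, which the mitochondrial genome encodes, surrounded by accessory subunits from the nucleus. The liver is rich in mitochondria and uses this chain to reoxidize the NADH made by fatty acid oxidation and the citrate cycle. The 37 nuclear genes for subunits of the complex in the fixed list were all in the files, and all 37 were tested. The 7 mitochondrially encoded subunits were not analysed here. The other 5 members were Ndufa4 and Ndufa4l2, which are named for complex I although Ndufa4 is now placed in complex IV, and the copies Ndufb4b, Ndufb4c and Ndufs6b.

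Levels of the 37 subunit genes spread widely although their proteins share a complex. As means over the 12 mice they ran from 15.5 FPKM for Ndufa11 to 456 FPKM for Ndufa3, a 29.4-fold range. Both are small subunits of the membrane arm. Ndufa11 was the lowest of the 37 and Ndufa3 the highest in each of the 12 mice. The next lowest was Ndufs1 at 39.4 FPKM, 11.6-fold below Ndufa3. Around these ends the levels were close together, since 26 of the 37 lay within a factor of 2 of the median subunit at 152 FPKM. A level per length rests on the transcript model used by the authors, so the order of genes depends on that model too.

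In the N core, which binds NADH and FMN, the median of the gene means was 64.2 FPKM, against 123 FPKM in the Q core. Ndufv1, the NADH and FMN binding subunit, averaged 106 FPKM, Ndufv2, an iron-sulfur subunit, averaged 64.2 FPKM and Ndufs1, the largest core subunit with several iron-sulfur clusters, averaged 39.4 FPKM. Ndufs3, a Q core subunit, stood at 153 FPKM, Ndufs7 at 106 FPKM and Ndufs8 at 101 FPKM. The lowest Q core mean was thus below that of Ndufv1, and the core subunits together spanned a 3.88-fold range. The 9 accessory subunits of the matrix arm lay between 40.8 FPKM for Ndufs4, a subunit needed for a stable N module, and 357 FPKM for Ndufa6, which docks the acyl carrier protein. Ndufab1, the mitochondrial acyl carrier protein, averaged 164 FPKM. The 9 proximal accessory subunits of the membrane arm had a median of 188 FPKM. The 11 distal ones had a median of 154 FPKM, with Ndufb2 lowest at 64.4 FPKM and Ndufb1 highest at 386 FPKM.

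**Figure D1:**
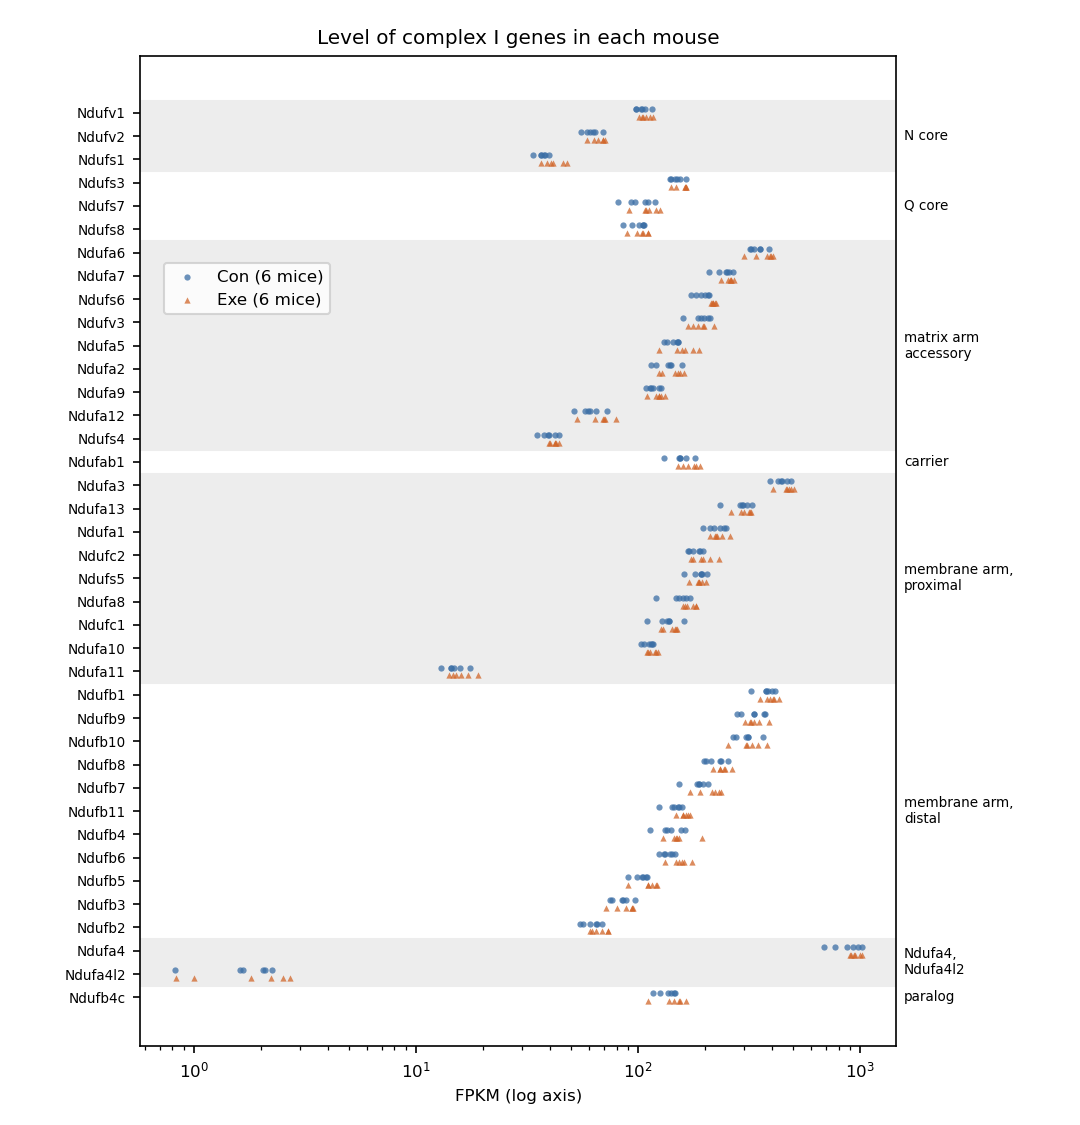
Level of 39 tested complex I genes in each mouse, in FPKM on a log axis, grouped by place in the complex, with Con mice as circles and Exe mice as triangles. Ndufa11 stands apart with a mean of 15.5 FPKM, most subunits lie within a factor of 2 of 152 FPKM, and Con and Exe points overlap in all genes but Ndufs6.

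Outside the 37 subunits, Ndufa4 had the highest level of all members. It ranged from 684 to 1018 FPKM in Con, with a median of 899, and from 902 to 1019 FPKM in Exe, with a median of 942. The groups overlapped, and the Con values spread further down. The log2 fold change was 0.14 with a standard error (SE) of 0.09 (limma adjusted p = 0.900, exact two-sided permutation p = 0.201, n = 6 per group), and without Con 1 it was 0.07. Ndufa4l2, a relative induced by hypoxia in many cells, was close to the filter, with a 12-mouse mean of 1.80 FPKM. Con mice ranged from 0.82 to 2.25 FPKM around a median of 1.85, and Exe mice from 0.83 to 2.72 FPKM around 2.02. Its log2 fold change was 0.03 (SE 0.19, limma adjusted p = 0.993, exact permutation p = 0.920), on the scale of log2(FPKM + 1), which can understate changes of low genes. With a pseudocount of 0.1 this log2 fold change was 0.02.

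The 3 copies are uncertain, since reads may be shared with their parent genes. Ndufb4c averaged 140 FPKM, but 100% of its 31-base words in the GENCODE transcripts also occur in Ndufb4. Ndufs6b shared 45.3% of its words with Ndufs6 and was listed at 0.26 to 1.06 FPKM. Of the Ndufs6 words, 15.1% occur in Ndufs6b. Ndufb4b had the lowest mean, being listed at 0 in 11 mice and at 1.15 FPKM in Exe 4, and its exact permutation p was 1.0. How the authors assigned reads that match more than a single gene is not given in the sources used here.

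The subunits varied together between mice, in both groups. For each mouse, the deviation of log2(FPKM + 1) from the 12-mouse mean was taken for each subunit. Con 3 had a median deviation of -0.23 over the 37 subunits, and 0 of the 37 were above their mean in it. It was the lowest of the 12 mice for 29 of the 37 subunits, while it was the lowest for 9.59% of all tested genes. The other Con mice had medians of -0.09 in Con 1, -0.08 in Con 2, 0.10 in Con 4, 0.002 in Con 5 and 0.006 in Con 6. Exe 2 had the highest median, 0.15, and was the highest mouse for 18 of the 37, and for 18.7% of all tested genes. Exe 4 followed with 0.12 and had all 37 above their mean, whereas in Exe 5 the median was -0.12 and 2 of 37 were above it. Of all tested genes, 50.5% were above their mean in Con 3, 59.6% in Exe 4 and 55.7% in Exe 5. Exe 1, Exe 3 and Exe 6 had medians of 0.05, 0.02 and 0.06. The 2 groups therefore overlapped, with Con 4 among the high mice and Exe 5 among the low ones. Over all tested genes, the medians stayed between -0.04 and 0.06.

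**Figure D2:**
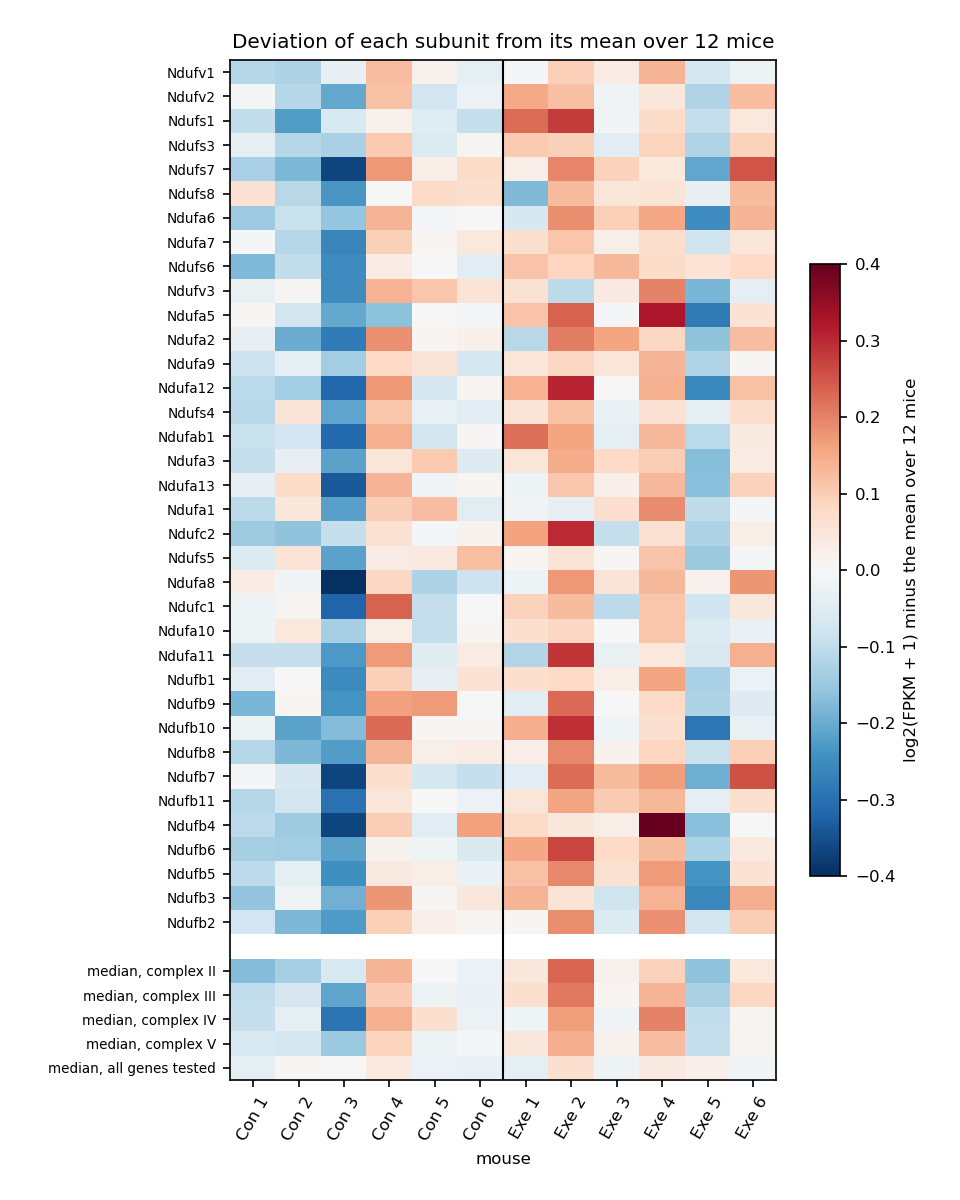
Deviation of each of 36 subunits (rows) in each mouse (columns) from its mean over the 12 mice, in log2(FPKM + 1), with medians of the other respiratory complexes and of all tested genes below. The columns of Con 3 (median -0.23) and Exe 5 (-0.12) are blue and those of Exe 2 (0.15), Exe 4 (0.12) and Con 4 (0.10) are red over nearly the whole complex.

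The other complexes of the chain deviated in the same direction in these mice. In Con 3 the median deviation was -0.06 for 4 complex II genes, -0.21 for 9 complex III genes, -0.29 for 11 complex IV genes and -0.15 for 18 complex V genes. In Exe 2 the medians were 0.23, 0.21, 0.17 and 0.14 in the same order. With values rescaled to the same sum per mouse (TPM), Con 3 was the lowest mouse for 17 of the 37 complex I subunits and Exe 2 the highest for 30. The shares over all tested genes on TPM were not counted. Before rescaling, Exe 2 was the highest mouse for 18.7% of all tested genes. The spread of single subunits was close to that of other genes as abundant. The median coefficient of variation over the 12 mice was 9.05% for the 37 subunits, from 4.98% for Ndufa10 to 13.8% for Ndufb4. It was 11.7% for all tested genes and 9.38% for the 1640 genes with a mean of at least that of Ndufs1.

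Transcript length moved with the values of Con 3. Lengths were taken from the GENCODE principal transcript, available for 36 of the 37 subunits, and this comparison was chosen after the values were seen. Among the 221 tested genes under 700 bases, the median deviation in Con 3 was -0.17 and 39.8% had their lowest value in that mouse. Among the 2869 genes of at least 4000 bases, the median was 0.04 and the share 4.46%. Of the 36 subunits, 12 were under 700 bases, with a Con 3 median of -0.22, and 11 were of at least 1000 and under 2000 bases, with a median of -0.21, where all genes of that length had -0.05. The median log2 fold change of Exe over Con was 0.08 for all genes under 700 bases and 0.09 for the 12 subunits among them, and 0.02 and 0.07 between 1000 and 2000 bases. The part of length in the values of the subunits was not tested.

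**Figure D3:**
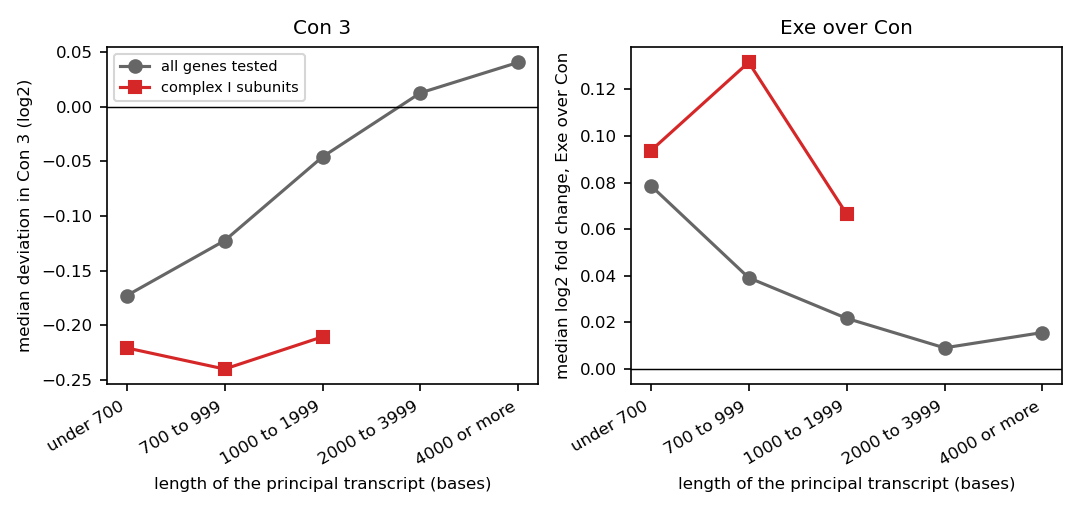
Median deviation in Con 3 (left) and median log2 fold change, Exe over Con (right), against the length of the principal transcript in bases, for all tested genes (circles) and for complex I subunits (squares, bins of at least 9 genes). For all genes the Con 3 median goes from -0.17 in the shortest bin to 0.04 in the longest, with the subunits below it in each bin shown, and the median fold change goes from 0.08 in the shortest bin to 0.02 in the longest, with the subunits above it.

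To ask whether chronic exercise was followed by another level of complex I transcripts, Exe was compared with Con. No member passed the test. In limma, 0 of 40 members had an adjusted p of 0.05 or less, as for all genes (0.0%), and the lowest adjusted p of a member was 0.789. On simulated data the same test called 0 of 200 genes given a log2 change of 0.2, so changes that small could go uncalled. At an unadjusted p under 0.05 there were 5 members, all higher in Exe: Ndufs6, Ndufb6, Ndufs1, Ndufb11 and Ndufa8. They are 12.5% of the 40, while 6.21% of all tested genes were at that p, 4.27% higher and 1.94% lower in Exe. The count was 2 without Exe 2, 3 without Con 3 or without Exe 4, 9 without Con 4 and 12 without Exe 5. Of all 10241 genes, 636 were at that p, and 418, 504, 730, 772 and 910 without Exe 2, Con 3, Exe 4, Con 4 and Exe 5. The member count was 3 after quantile normalization and 8 on TPM. These scalings also moved the split of all genes at that p, from 437 of 636 higher in Exe to 348 of 617 and 684 of 777. In bulk liver, fewer cells of a type and less RNA per cell cannot be told apart.

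Differences were small and nearly all positive. The log2 fold change was above 0 for 39 of the 40 members (97.5%), against 57.5% of all tested genes. Its median was 0.09 for the members and 0.02 for all genes, and it ran from -0.01 for Ndufv3 to 0.18 for Ndufb6, which is 1.13-fold. The members share the deviations of the mice described above, so their common sign is not 39 separate observations. The median was 0.05 without Con 3, 0.04 after quantile normalization, when 30 members were above 0, and 0.13 on TPM, when all 40 were. For all tested genes the median was 0.02 without Con 3. It was 0.005 after quantile normalization, with 52.7% above 0, and 0.05 on TPM, with 70.2% above 0. The median SE of a member was 0.07, and the 95% limits of the 37 subunits reached from -0.18 for Ndufv3 to 0.37 for Ndufb7. By place, the median log2 fold change was 0.10 for the N core, 0.06 for the Q core, 0.09 for the matrix arm accessory subunits, 0.06 for the proximal and 0.12 for the distal membrane arm, and 0.13 for Ndufab1.

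**Figure D4:**
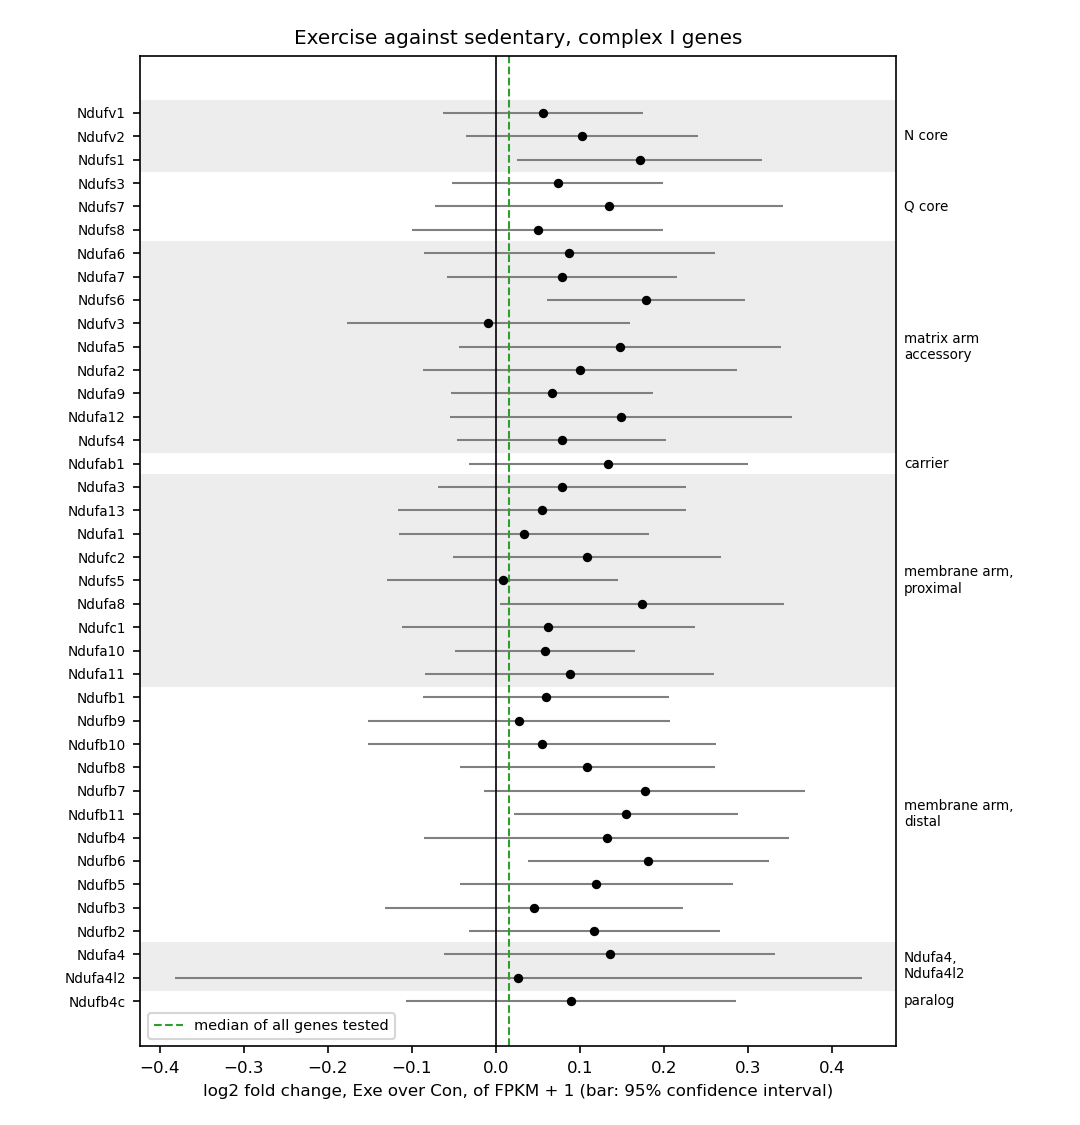
Log2 fold change of FPKM + 1, Exe over Con, for 39 tested complex I genes (points) with 95% confidence intervals (bars), and the median of all tested genes (dashed line, 0.02). All points but Ndufv3 (-0.01) are right of 0, and the intervals of 34 of the 39 include 0.

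Ndufs6 (gene ID 407785), a zinc-binding accessory subunit at the N module, was the only member whose groups did not overlap. Con mice ranged from 172 to 210 FPKM with a median of 196, and Exe mice from 213 to 225 FPKM with a median of 217. All 6 Exe mice were above all 6 Con mice, as for 0.234% of all tested genes, and for 0 members, against 0.0195% of genes, were all Exe mice below all Con mice. The means were 193 ± 14.4 FPKM in Con and 218 ± 4.22 FPKM in Exe (SD, n = 6). The log2 fold change was 0.18 (SE 0.05, limma p = 0.00572, adjusted p = 0.789, exact permutation p = 0.00216). This exact p is the smallest that 6 against 6 mice can give.

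Ndufb6 (gene ID 230075), a small subunit of the distal membrane arm, had the largest log2 fold change of the members, 0.18 (SE 0.07, limma p = 0.0167, adjusted p = 0.793, exact permutation p = 0.0195). Its Con mice lay between 124 and 146 FPKM around a median of 135, and its Exe mice between 132 and 174 FPKM around 155. Of the Exe mice, 5 were above all Con mice, and Exe 5 was within the Con range.

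Ndufs1 (gene ID 227197) was the core subunit with the lowest unadjusted p. Its Con values ran from 33.5 to 39.8 FPKM with a median of 37.1, and its Exe values from 36.7 to 47.9 FPKM with a median of 40.9. Above all Con mice were 4 Exe mice, with Exe 1 and Exe 2 the highest at 46.04 and 47.86 FPKM. The log2 fold change was 0.17 (SE 0.07, limma p = 0.0247, adjusted p = 0.793, exact permutation p = 0.0238).

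Ndufb11 (gene ID 104130), an X-linked subunit of the distal membrane arm, ranged from 124 to 158 FPKM in Con with a median of 148, and from 149 to 171 FPKM in Exe with a median of 162. Above all Con mice were 5 Exe mice, and Exe 5 was within the Con range. The log2 fold change was 0.16 (SE 0.06, limma p = 0.0256, adjusted p = 0.793, exact permutation p = 0.0173). Ndufa8 (gene ID 68375), a cysteine-rich subunit facing the intermembrane space, ranged from 120 to 171 FPKM in Con around 156 and from 159 to 182 FPKM in Exe around 171. Con 3 was the lowest mouse, well below the next, and 3 Exe mice were above all Con mice. Its log2 fold change was 0.17 (SE 0.08, limma p = 0.0441, adjusted p = 0.799, exact permutation p = 0.0368). Without Con 3 it was 0.11, and the unadjusted p was under 0.05 in 13 of 22 alternative settings, that one not among them. Ndufb7, another cysteine-rich subunit on that side, lay between 153 and 207 FPKM in Con around 188 and between 172 and 235 FPKM in Exe around 219. The groups overlapped, and the log2 fold change was 0.18 (SE 0.09, limma adjusted p = 0.816, exact permutation p = 0.0866).

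**Figure D5:**
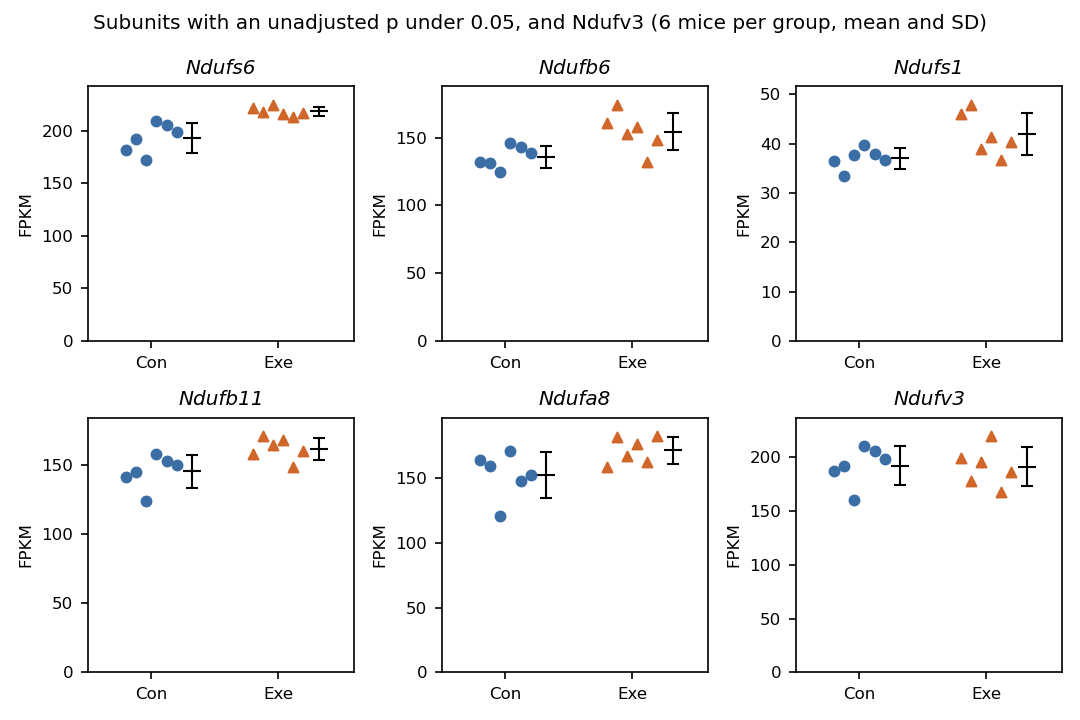
FPKM of each mouse (points, Con circles and Exe triangles, replicates 1 to 6 from left to right) with the group mean and SD (bar, n = 6) for the 5 subunits at an unadjusted p under 0.05 and for Ndufv3. Ndufs6 is the only panel where all Exe mice (213 to 225) are above all Con mice (172 to 210), and Ndufv3 shows nearly equal means of 192 in Con and 191 in Exe.

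The other core subunits did not pass the test, and in each the groups overlapped. Ndufv1 ranged from 97.5 to 116 FPKM in Con around 104 and from 101 to 117 FPKM in Exe around 107, a log2 fold change of 0.06 (SE 0.06, limma adjusted p = 0.931, exact permutation p = 0.268). Without single mice it was between 0.03 and 0.09, lowest without Exe 4 and highest without Con 4, and 0.04 without Con 2. Ndufv2 ranged from 55.4 to 69.6 FPKM in Con around 61.8 and from 58.9 to 71.2 FPKM in Exe around 67.9, a log2 fold change of 0.10 (SE 0.06, adjusted p = 0.882, exact permutation p = 0.128). In the NADH-oxidizing module, only Ndufs1 of the 3 core genes was thus at an unadjusted p under 0.05.

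Among the Q core genes, Ndufs3, a core subunit without a cluster, ranged from 140 to 164 FPKM in Con around 148 and from 141 to 165 FPKM in Exe around 163, and 0.07 was its log2 fold change (SE 0.06, limma adjusted p = 0.924, exact permutation p = 0.195). Ndufs7, which holds the last iron-sulfur cluster before ubiquinone, had the widest Con range of the core genes relative to its level, from 81.5 to 119 FPKM around 102. Its Exe mice lay between 91.2 and 126 FPKM around 110, and the log2 fold change was 0.13 (SE 0.10, limma adjusted p = 0.910, exact permutation p = 0.221), or 0.07 without Con 3. Ndufs8, with a pair of clusters, ranged from 85.8 to 107 FPKM in Con around 103 and from 89.3 to 110 FPKM in Exe around 105. Its log2 fold change was 0.05 (SE 0.07, limma adjusted p = 0.952, exact permutation p = 0.478).

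At the lower end, Ndufv3, an accessory subunit of the N module, was the only tested member with a log2 fold change under 0. It ranged from 160 to 210 FPKM in Con around 195 and from 168 to 219 FPKM in Exe around 191 (log2 fold change -0.01, SE 0.08, limma adjusted p = 0.994, exact permutation p = 0.907). Its sign turned on TPM, where it was 0.03. Ndufs5, of the proximal membrane arm, ranged from 161 to 204 FPKM in Con around 192 and from 169 to 203 FPKM in Exe around 188, a log2 fold change of 0.01 (SE 0.06, limma adjusted p = 0.994, exact permutation p = 0.894). Ndufb9, the acyl carrier partner in the distal membrane arm, ranged from 280 to 373 FPKM in Con around 332 and from 304 to 388 FPKM in Exe around 326, a log2 fold change of 0.03 (SE 0.08, limma adjusted p = 0.977, exact permutation p = 0.747). Ndufa1, a small X-linked subunit, ranged from 195 to 248 FPKM in Con around 227 and from 212 to 259 FPKM in Exe around 226, a log2 fold change of 0.03 (SE 0.07, limma adjusted p = 0.966, exact permutation p = 0.632). In each of these genes the groups overlapped, and after quantile normalization Ndufs5, Ndufb9 and Ndufa1 were under 0 (-0.06, -0.03 and -0.01). The other 23 tested members had log2 fold changes between 0.05 for Ndufb3 and 0.15 for Ndufa12.

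Subunit promoters were read because the subunit genes moved together between mice, and those of the genes with the lowest unadjusted p are shown. The sequences are the 250 bases before the RefSeq start (GRCm38.p6), which is not the build of the authors' alignment, and Ndufs1 had none. Capitals mark matches to letters of factors known for respiratory genes, searched on both strands: CGGAAG for the ETS factor GABPA, GCGCATG for NRF1, AAGATGG for YY1 and AAGGTCA for ERR. Each is written 5′ to 3′ in the direction of its gene.
Ndufs6, chr13:73328483-73328732, minus strand: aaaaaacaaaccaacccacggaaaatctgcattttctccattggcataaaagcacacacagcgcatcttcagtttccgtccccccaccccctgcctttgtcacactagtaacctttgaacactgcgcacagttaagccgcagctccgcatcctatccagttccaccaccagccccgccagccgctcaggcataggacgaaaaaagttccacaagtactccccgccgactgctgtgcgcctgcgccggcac
Ndufb6, chr4:40279422-40279671, minus strand: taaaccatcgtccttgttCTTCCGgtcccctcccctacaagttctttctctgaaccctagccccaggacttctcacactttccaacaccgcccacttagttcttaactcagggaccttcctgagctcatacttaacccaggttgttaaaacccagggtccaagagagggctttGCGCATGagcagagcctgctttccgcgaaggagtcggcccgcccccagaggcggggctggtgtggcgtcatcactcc
Ndufb11, chrX:20617620-20617869, minus strand: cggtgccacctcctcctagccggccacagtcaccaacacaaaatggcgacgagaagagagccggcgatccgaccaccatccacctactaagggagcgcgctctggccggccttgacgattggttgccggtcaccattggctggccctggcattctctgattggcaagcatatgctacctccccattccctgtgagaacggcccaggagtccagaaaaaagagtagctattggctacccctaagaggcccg
Ndufa8, chr2:36049339-36049588, minus strand: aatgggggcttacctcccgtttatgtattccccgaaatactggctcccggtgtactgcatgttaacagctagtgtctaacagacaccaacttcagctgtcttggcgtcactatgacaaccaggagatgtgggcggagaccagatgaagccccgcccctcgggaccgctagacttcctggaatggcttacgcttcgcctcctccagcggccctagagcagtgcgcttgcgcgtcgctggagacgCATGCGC

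NRF1 letters were found in 2 of these 4 promoters and ETS letters in 1. In Ndufb6 the first base of an ETS match lay 232 bases and that of an NRF1 match 77 bases before the start, and in Ndufa8 an NRF1 match began 7 bases before it. Ndufs6 and Ndufb11 held none of these letters in the window shown. With the first 50 bases after the start added, 35 members had a window in the table. NRF1 letters were in 5 of the 35 (14.3%), against 8.23% of 8286 tested genes with such a window and 4.41% of all 27025 genes in the table. YY1 letters were in 7 (20.0%, against 8.81% and 7.28%), Ndufs6 among them, and in no member did a match lie wholly before the start. ETS letters were in 10 (28.6%, against 36.8% and 18.8%) and ERR letters in 3 (8.57%, against 4.30% and 5.38%). A match is a string of letters and does not show that a factor bound there.

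Complex I is built by assembly factors, which are not part of the finished enzyme. Of the fixed list, 19 factors were in the files and all were tested. In limma, 0 of the 19 had an adjusted p of 0.05 or less, 15 log2 fold changes were above 0 and 4 below, and the median was 0.03. At an unadjusted p under 0.05 there were 3 (15.8% of the 19), all higher in Exe. Over all tested genes, 4.27% were at that p and higher in Exe, and 57.5% were above 0. Ndufaf8, a partner of Ndufaf5, ranged from 34.2 to 43.5 FPKM in Con around 36.8 and from 40.01 to 51.01 FPKM in Exe around 43.7, with a log2 fold change of 0.27 (SE 0.08, limma p = 0.00378, adjusted p = 0.756, exact permutation p = 0.00866). Ndufaf5, which modifies Ndufs7 early in assembly, was low at 2.44 to 3.78 FPKM in Con and 3.10 to 4.18 FPKM in Exe, with a log2 fold change of 0.23 (SE 0.09, limma adjusted p = 0.793, exact permutation p = 0.0325). Nubpl, an iron-sulfur cluster carrier for the complex, ranged from 7.22 to 8.97 FPKM in Con and from 7.75 to 9.99 FPKM in Exe, with a log2 fold change of 0.16 (SE 0.07, limma adjusted p = 0.798, exact permutation p = 0.0390). All 3 overlapped between groups. Ndufaf2 was lowest at -0.04 (limma adjusted p = 0.962).

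The count of 3 was 1 without Con 1 or without Exe 2 and 6 without Exe 5. The median of the factors was 0.02 without Con 3 and 0.01 without Exe 2. It was between 0.05 and 0.09 without Con 1, Con 4, Con 6, Exe 1, Exe 3, Exe 4 or Exe 5, and 0.07 on TPM, where the median of all tested genes was 0.05. In Con 3, the mouse with the lowest subunits, the assembly factors had a median deviation of -0.09 and 1 of the 19 had its lowest value there.

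Regulators of respiratory genes did not pass the test. Of 10 in the files, 8 were tested, 0 had an unadjusted p under 0.05 in limma and 5 had a log2 fold change above 0, with a median of 0.02. Pprc1, a coactivator of the PGC-1 family, was highest at 0.18 (limma adjusted p = 0.922), with 2.18 to 3.62 FPKM in Con and 2.19 to 4.34 FPKM in Exe. Ppargc1b, a relative of it, was lowest at -0.14 (limma adjusted p = 0.900), with 1.15 to 1.66 FPKM in Con and 0.75 to 1.52 FPKM in Exe. Ppargc1a, known for its response to exercise in muscle, was below the filter at 0.805 ± 0.165 FPKM in Con and 0.85 ± 0.07 FPKM in Exe (SD, n = 6).

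Across the chain, the median log2 fold change was of like size in each complex. It was 0.10 for complex II (4 of 4 genes above 0), 0.10 for complex III (9 of 9), 0.10 for complex IV (11 of 11) and 0.07 for complex V (16 of 18), beside 0.09 for complex I (36 of 37 subunits). No gene of these lists had a limma adjusted p of 0.05 or less, and 2 of them, Uqcrb of complex III and Atp5g1 of complex V, had an unadjusted p under 0.05, where all tested genes had 6.21% at that p and 57.5% above 0. A difference between complex I and the other complexes was not tested.

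The labelled tissue was checked against marker genes summed per mouse in FPKM. Hepatocyte markers, with 9 of 10 genes in the files, summed to 60274 to 77546 in Con (median 66221) and 69155 to 85562 in Exe (median 78082), and 7 of the 9 had a higher mean in Exe. Markers of muscle, kidney and adipose tissue were near 0. Skeletal muscle markers (9 of 10 in the files) summed to at most 1.26 in Con and 1.88 in Exe, heart muscle markers (8 of 9, with 1 at 0 in all mice) to at most 1.02 and 3.62, the latter in Exe 2, and kidney (2 of 6) and adipose (5 of 6) markers to at most 0.06 and 0.44. Red blood cell markers (7 of 7) ranged from 235 to 903 in Con and from 400 to 1290 in Exe. Kupffer cell and macrophage markers (10 of 10) ranged from 303 to 558 and from 220 to 501. Endothelial (8 of 8), stellate cell and fibroblast (8 of 8) and bile duct (6 of 6) markers ranged from 56.8 to 89.3, 49.5 to 99.1 and 27.2 to 75 in Con, and from 65.5 to 77.7, 51.5 to 98.5 and 25.4 to 76.8 in Exe. The bile duct median was 65.9 in Con and 35.6 in Exe, with 0 of 6 genes higher in Exe, and Con 3 had the highest Con sum. The medians of red blood cell markers were 415 in Con and 708 in Exe (6 of 7 genes higher in Exe), and those of Kupffer cell and macrophage markers 364 and 309 (0 of 10 higher). Pancreatic acinar markers (10 of 10, all with a higher mean in Exe) reached 17 in Con and 32.5 in Exe 5, but only 2 of these genes had a 12-mouse mean of at least 1 FPKM. Neutrophil markers (7 of 7) reached 33.6 in Con and 50.1 in Exe, T cell markers (6 of 7) 2.78 and 3.86, and B and plasma cell markers (6 of 6) 5.83 and 8.61. The part of these cells in the subunit levels was not tested.

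Acute phase genes, which hepatocytes switch on in inflammation, stood apart in some mice. Their sum over 8 of 8 genes ranged from 4011 to 34263 FPKM in Con, highest in Con 1, and from 4181 to 33360 FPKM in Exe, highest in Exe 5. The median was 15573 in Con and 7843 in Exe, and 0 of the 8 genes had a higher mean in Exe. Con 1 and Exe 5 had subunit medians under 0 (-0.09 and -0.12), and Exe 2, Exe 4 and Con 4, with the highest subunit medians, had sums of 4452, 4181 and 4011. Con 5, with a subunit median of 0.002, also had a low sum of 4744. Con 3, with the lowest subunit median, had a sum of 15986, Con 2 of 21214 and Con 6, with a subunit median of 0.006, of 15160. Exe 1, Exe 3 and Exe 6, with subunit medians of 0.05, 0.02 and 0.06, had sums of 7281, 10085 and 8405. The part of these genes in the subunit difference was not tested beyond the settings that follow. Without Con 1 and Exe 5, the members at an unadjusted p under 0.05 were 11, the median of all members was 0.11 on the log2 scale, and 0 had an adjusted p of 0.05 or less. Of all 10241 genes, 744 were at that unadjusted p in this setting, and their median log2 fold change over all genes was 0.006. With the mean acute phase level as a covariate, 4 members were at that unadjusted p, 34 were above 0 and the median was 0.05, beside 588 of all genes at that p. With this covariate, 54.5% of all genes were above 0, with a median of 0.009. Both settings were chosen after the values were seen.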

How the data were processed

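Liver RNA of 12 mice was sequenced on the DNBSEQ platform. Clean reads were mapped with HISAT to GRCm39, and the values the authors deposited are FPKM with 2 decimals. The submitters' processing notes also list Bowtie2 and mm10, with no role, and the tool and annotation behind the FPKM are not given in the sources used here. FPKM summed to 735200 to 820107 per mouse. Depth in reads is unknown. Relative depth, from the FPKM steps of 23 low genes, was 0.990 to 1.03. Genes whose values departed further from a common step were left out, so this range cannot show that depths were equal. DESeq, the authors' test, needs counts and was not used here.

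Genes with at least 1 FPKM in at least 6 mice were fitted as log2(FPKM + 1) with limma 3.58.1 in R 4.3.3 (lmFit, eBayes with a trend, two-sided, Benjamini-Hochberg over 10241 genes), after a test on simulated data. Exact permutation tests ran in scipy 1.17.1 and figures in matplotlib 3.10.9 (Python 3.11.15). Lengths and 31-base words came from GENCODE (GRCm38), using the best supported principal transcript.

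The members and gene lists were chosen with earlier results of these data known. Described in full were the nuclear core subunits, apart from an item not reported here, the 5 highest and 5 lowest log2 fold changes, the highest and lowest mean and the 3 lowest unadjusted p. Ndufb11, Uqcrb and Atp5g1 were named after their values were seen. Alternatives were a pseudocount of 0.1, other filters, scalings or variance moderation, a replicate block, and each mouse left out.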

Additional observations from a re-analysis of the deposited data

Results flagged for a closer look

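In each group of 6 mice, the gap between an extreme mouse and its neighbour was divided by the range of the group and set against Dixon's critical value at 95%, over 83 sets, of which chance alone passes about 1 in 20. There were 3 such sets. Ndufb4 was high in Exe 4, at 194 FPKM against 129 to 154 in the other Exe mice, a ratio of 0.626. Ndufb4b was at 1.15 FPKM in Exe 4 and 0 in the others, a ratio of 1.0, which any single value above 0 gives. The copy Ndufb4b and its parent gene stood out in the same mouse. The copy Ndufb4c did not, at 152 FPKM in Exe 4, 155 in Exe 2 and 165 in Exe 6. Shared reads between these genes were not tested. Ndufb5, a distal membrane arm subunit, was low in Exe 5, at 90.3 FPKM against 111 to 122, a ratio of 0.652.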

How the results depend on the processing

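Across 22 alternatives, 444 of 484 values were counted as kept. Single members had to keep their direction and side of the threshold, and counts to stay within 1.5 times. Medians had to keep their sign and move by less than the median SD within groups. That limit is loose, being 0.12 for the 37 subunits, whose median log2 fold change was 0.09. The fold range of levels on TPM was counted as kept without a limit. Of the values not kept, 28 were sign turns of single members near 0. The rest were counts at an unadjusted p under 0.05. The 0 members at an adjusted p of 0.05 or less held in all of them, and the lowest adjusted p of a member was 0.442, for Ndufb6 without Exe 5. The 5 members at an unadjusted p under 0.05 became 3 after quantile normalization, 8 on TPM and 11 without Con 1 and Exe 5, and 2 to 12 with a mouse left out. The 3 assembly factors became 1 without Con 1 and Exe 5, and 1 to 6 with a mouse left out. The cause was not tested.

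Signs turned for members near 0. After quantile normalization the log2 fold change was -0.0047 for Ndufs8, -0.058 for Ndufs5, -0.028 for Ndufb9 and -0.011 for Ndufa1. With the acute phase covariate it was -0.017 for Ndufs5, -0.026 for Ndufb9 and -0.0021 for Ndufa1. For Ndufv3 it was 0.029 on TPM and 0.020 without Con 1 and Exe 5, where Ndufa4l2 had -0.048. With a mouse left out it ran from -0.060 to 0.027 for Ndufv3, from -0.034 to 0.038 for Ndufs5, from -0.087 to 0.144 for Ndufa4l2, from -0.018 to 0.064 for Ndufb9 and from -0.0070 to 0.061 for Ndufa1.

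Replicate numbers did not pair the mice. Correlations of same-numbered deviations ran from -0.478 to 0.165, and 1 pair of 6, Con 4 with Exe 4, correlated best with its own number. With the replicate block 4 members were at an unadjusted p under 0.05, the median log2 fold change was 0.087 and 0 had an adjusted p of 0.05 or less. Without the filter, 1 of 16804 genes and 0 members had such an adjusted p. The spread between 6 mice limits the comparison, with a median SE of 0.075 for a member, and the depth in reads is unknown.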
